A study of Mus musculus with 5 samples.

Results

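Transcripts of 40 mitotic spindle and kinetochore genes were examined in mouse embryonic stem (ES) cells made to overexpress Satb1. The genes were chosen by name, and each was represented by the probe set that carries its symbol alone in the array annotation, taking the one with the highest mean over all arrays where a gene had several. This gave 39 measured genes among the 19938 genes of the series. Ccnb1, the cyclin B1 gene, had no such probe set and was not analysed here.

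RNA was hybridised to 5 arrays, 3 from induced and 2 from uninduced cultures of ES cells that all carried a tetO-Satb1 transgene, in which a doxycycline-responsive promoter drives Satb1. Induced cultures received doxycycline (DOX) for 24 h, uninduced cultures, labelled control, received none, and both were harvested 48 h after passaging. ES cells are pluripotent cells taken from the early embryo, grown here with serum and the cytokine LIF, and SATB1 is a chromatin organiser that contacts AT-rich DNA. The treatment protocol also names irradiated feeder cells, which the extraction reduced by letting them settle, while the series' design text names LIF alone. There was no DOX-treated group without the transgene, so DOX and Satb1 cannot be told apart, and the labels leave unsaid whether the arrays of a group stand for separate cultures or clones. The p-values thus rest on array-to-array spread alone, and that may be technical. All values are limited in precision by the number of arrays.

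Cells enter mitosis when CDK1, bound to cyclins A and B, becomes active. Aurora and Polo-like kinases then build the spindle, kinesin motors slide and shorten its microtubules, and kinetochores attach chromosomes to it. Unattached kinetochores hold the checkpoint proteins MAD2, BUBR1 and BUB3 on CDC20, which delays the anaphase-promoting complex (APC/C) until all chromosomes are attached. The chromosomal passenger complex corrects wrong attachments and later helps to place the cleavage furrow. ES cells divide fast, with short gap phases, and express these genes at high levels. Transcription of many of them peaks in G2 and M phase through the MuvB complex with B-MYB and FOXM1, which acts at promoter elements called CHR (cell cycle genes homology region), often beside CCAAT boxes bound by NF-Y.

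The promoters were searched for both elements, since the rule that chose the genes used no sequence. RefSeq promoters of assembly GRCm38.p6, which run from 250 bases before to 50 bases after each annotated start, were matched by symbol for 35 of the 40 genes. The CHR was searched as TTTGAA and the CCAAT box as CCAAT, both on either strand, and the matches may overlap. A CHR stood in 26 of the 35 genes (74.3%), against 20.2% of all 27025 genes with a promoter in that table, and 24 of the 26 had one within 50 bases of a start. A CCAAT box stood in 24 (68.6%), against 41.1% of all genes, and 21 genes (60.0%) had both, against 9.0% of all genes. These matches describe the letters in the window only. The stretches below run from 130 bases before to 30 bases after the start (160 bases, 5′ to 3′, GRCm38.p6), with CHR and CCAAT matches in capitals. They show 5 genes whose induced values were all below both uninduced values (G2e3, Birc5, Kif23, Kif11, Hmmr) and Cdca8 and Cenpa, whose means were equal or nearly so. Nusap1, also lower on every induced array, had neither element in its window and is not printed. Tpx2, lower in the same way, had no promoter matched by symbol.
G2e3, chr12:51348100-51348259, plus strand: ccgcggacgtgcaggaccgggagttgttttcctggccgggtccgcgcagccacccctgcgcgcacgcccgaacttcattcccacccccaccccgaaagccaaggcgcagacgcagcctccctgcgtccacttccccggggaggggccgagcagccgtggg
Birc5, chr11:117849107-117849266, plus strand: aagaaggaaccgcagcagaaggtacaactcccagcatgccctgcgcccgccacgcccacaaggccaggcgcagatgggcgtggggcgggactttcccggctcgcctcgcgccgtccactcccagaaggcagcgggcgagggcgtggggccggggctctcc
Kif23, chr9:61946770-61946929, minus strand: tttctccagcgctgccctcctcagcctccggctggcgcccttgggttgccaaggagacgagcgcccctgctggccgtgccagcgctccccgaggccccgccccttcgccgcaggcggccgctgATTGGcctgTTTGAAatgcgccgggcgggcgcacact
Kif11, chr19:37376252-37376411, plus strand: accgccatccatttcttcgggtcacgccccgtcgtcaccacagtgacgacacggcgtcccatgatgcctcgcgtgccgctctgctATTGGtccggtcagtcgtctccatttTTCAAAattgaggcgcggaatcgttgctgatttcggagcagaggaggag
Hmmr, chr11:40733408-40733567, minus strand: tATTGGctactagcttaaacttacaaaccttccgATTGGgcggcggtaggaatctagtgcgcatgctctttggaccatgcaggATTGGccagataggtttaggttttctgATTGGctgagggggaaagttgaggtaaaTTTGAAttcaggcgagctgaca
Cdca8, chr4:124936888-124937047, minus strand: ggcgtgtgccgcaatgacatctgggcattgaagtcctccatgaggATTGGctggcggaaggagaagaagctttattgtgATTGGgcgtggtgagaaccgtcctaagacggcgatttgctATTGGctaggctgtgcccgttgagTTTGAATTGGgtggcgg
Cenpa, chr5:30666756-30666915, plus strand: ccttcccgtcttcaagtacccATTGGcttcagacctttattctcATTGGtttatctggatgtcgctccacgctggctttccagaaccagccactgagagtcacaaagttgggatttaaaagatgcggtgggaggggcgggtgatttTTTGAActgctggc
G2e3 and Birc5, the measured genes with the smallest p-values in the comparison, held neither element anywhere in the 300-base window. Kif23, with the largest change, had a CCAAT box with its first base at -7 and a CHR at 3 from the start. Kif11 had its CHR at -19, Hmmr at 9, Cdca8 at 14, where it overlaps a CCAAT box, and Cenpa at 17. Among the 34 genes with both a promoter and a probe set, a CHR stood in 3 of the 6 whose induced values all lay below both uninduced values and in 23 of the other 28.

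**Figure D1:**
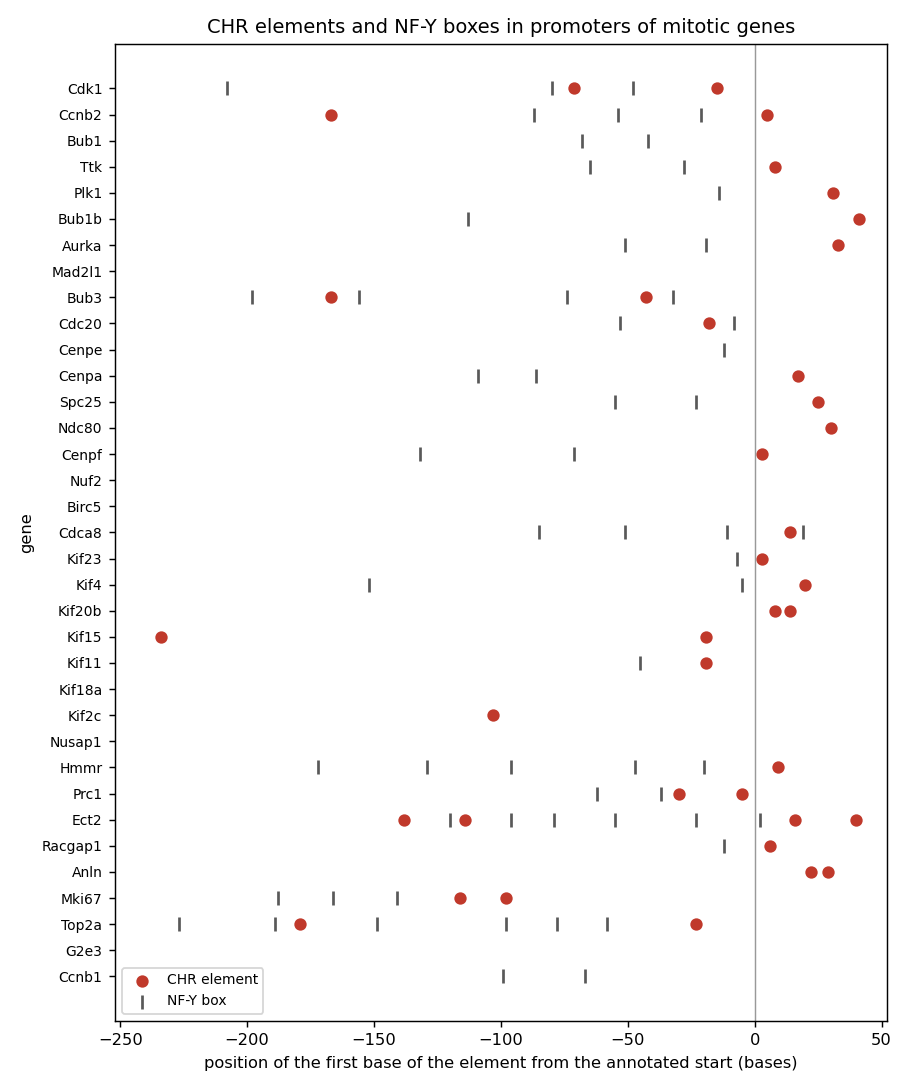
Positions of matches to the CHR (red points) and to the CCAAT box (grey bars, labelled NF-Y box) in the RefSeq promoters of 35 mitotic genes. Binding was not measured. The x axis gives the first base of each match in bases from the annotated start, and genes with several starts show the matches of each. A CHR lies within 50 bases of the start in 24 genes, and 6 genes, among them G2e3 and Birc5, have neither element.

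The induced gene was checked first. Satb1 had a log2 level of 8.61, 8.79 and 8.68 on the induced arrays, against 4.95 and 5.34 on the uninduced arrays, a difference of 3.55 ± 0.15 (standard error). All induced arrays lay above both uninduced arrays, although Satb1 did not pass 0.05 in limma's fit over all genes (adjusted p = 0.229). With the spread estimated on the 1800 genes that had 5 distinct values, called the tie-free spread here, it passed (adjusted p = 0.00384).

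Deposited values were often exactly the same on several arrays. Of the 39 mitotic genes, 30 had at least 1 such tie and 2, Cdca8 and Nuf2, had a single value on all 5 arrays. Over all 19938 genes, 18138 had a tie and 15.1% a single value on all arrays. Because ties understate the spread within groups, the intervals given here use the tie-free spread, while p-values come from limma over all genes unless stated. Pearson's r between arrays lay from 0.9972 to 0.9979 over all genes, which are not independent replicates. The mean level of 15 ES cell markers was 8.51, 8.48 and 8.50 on the induced arrays, against 8.53 and 8.57 on the uninduced arrays (11 lower, 3 higher and 1 equal in their means). The shares lower in their means, and lower by 0.1 or more, were 73.3% and 20.0% for these markers and 74.4% and 20.5% for the mitotic genes. Klf4 was at -0.35, Tdgf1 at -0.21 and Dppa3 at -0.17, while Pou5f1 and Sox2 had levels near 9.9 on all arrays. The part of such shifts in the results below was not tested. The mean of 24 measured feeder fibroblast markers was 5.25, 5.27 and 5.29 in the induced group, against 5.25 and 5.26 in the uninduced group. Of these, 12 were higher, 8 lower and 4 the same in their means. The defining collagens Col1a1 and Col3a1 lay at 6.07 to 6.09 and 5.42 to 5.49. Changes of 0.1 or more were those of Tagln (0.19), Acta2 (0.18) and Mmp2 (0.11), which were higher, and Lox (-0.20), which was lower. Primitive endoderm markers averaged 5.08 to 5.15 in the induced group and 5.12 in the uninduced group, and mesendoderm markers averaged 4.67 to 4.72 and 4.61 to 4.68 in the same groups.

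Mitotic genes were well expressed and differed little between induced and uninduced cells. Their mean levels ran from 6.43 (Kif4) to 10.33 (Top2a) on the log2 scale, from percentile 77.2 to 99.5 of all genes. None of the 39 passed an adjusted p of 0.05 in either direction (limma, Benjamini-Hochberg over 19938 genes), where 0.0100% of all genes passed as higher and 0.00502% as lower. At an unadjusted p under 0.05 the mitotic genes gave 0 higher and 3 lower, namely Birc5, G2e3 and Kif23, where 0.481% of all genes were higher and 1.07% lower. Means were lower in induced cells for 29 genes, higher for 8 and equal for 2, with a median log2 change of -0.02. Over all genes the mean was lower in 45.3% and higher in 39.6%, with a median change of 0. Among the 9969 genes above the median level, where all 39 lie, 52.9% were lower and 35.0% higher, with a median of -0.0038. The balance of directions depended on scaling. Centring each array on its median kept 29 lower and 10 higher, with a median of -0.0214, whereas quantile normalization applied again left 21 lower and 18 higher, with a median of -0.0017. RNA from many cells was pooled on each array, so fewer cells in mitosis and less RNA per cell cannot be told apart.

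**Figure D2:**
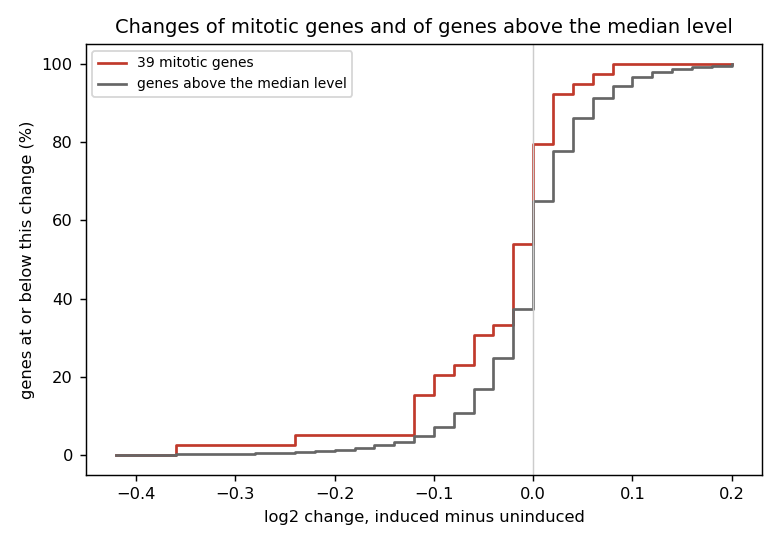
Cumulative share of genes (y axis, %) at or below each log2 change, induced minus uninduced (x axis, in steps of 0.02), for the 39 mitotic genes (red) and the 9969 genes above the median level (grey). The last step, at 0.2, also holds all larger changes of the grey set, which reach 3.55. The mitotic curve lies above the grey one on the left, with 20.5% of mitotic genes and 7.26% of the genes above the median level lower by 0.1 or more.

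The groups did not overlap in 7 mitotic genes (17.9%), each with the induced arrays lower, and in 0 with the induced arrays higher. Quantile normalization applied again gave 6 with the induced arrays lower and 5 with them higher. As deposited, the background was 3.08% lower and 1.65% higher over all genes, and 4.98% and 1.57% among genes above the median level. A log2 change of 0.1 or more was lower in 8 genes (20.5%) and higher in 0, where the genes above the median level had 7.26% and 3.43%. Uninduced array 2 had the highest value of the 5 arrays in 21 mitotic genes (53.8%), against 25.4% of genes above the median level. Uninduced array 1 was highest in 5 genes (12.8%), against 12.7%. The mean over the 39 genes was 7.979, 7.962 and 7.957 on the induced arrays, against 7.996 and 8.031 on the uninduced arrays. Against uninduced array 1 alone, 24 genes were lower, 12 higher and 3 equal, with a median change of -0.0032. Against uninduced array 2 alone, 32 were lower, 5 higher and 2 equal, with a median of -0.0485. With the feeder marker mean as a covariate, 27 genes were lower and the median was -0.0265.

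**Figure D3:**
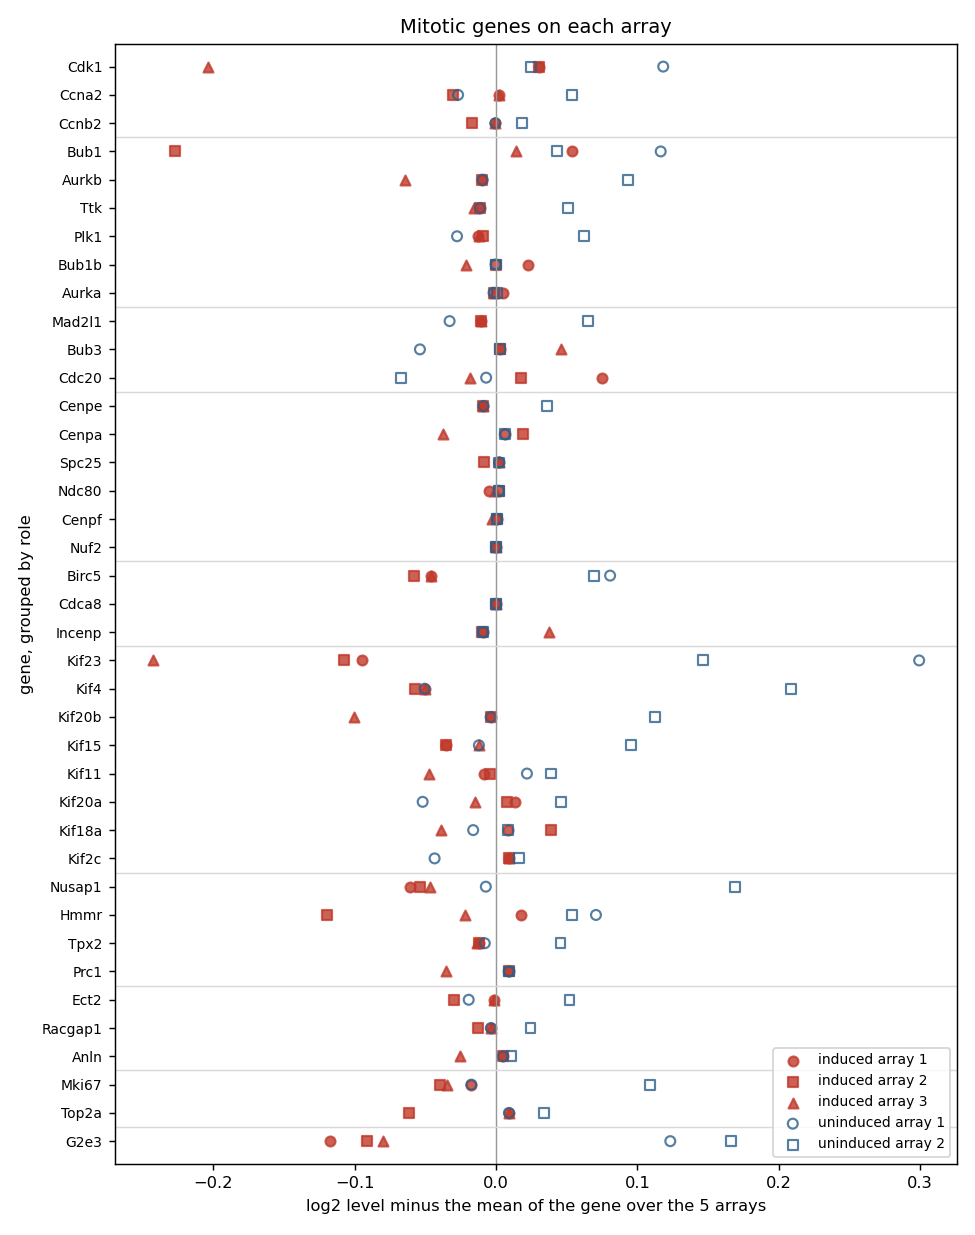
Log2 level of each mitotic gene on each array, minus the mean of that gene over the 5 arrays (x axis), for induced arrays (filled red) and uninduced arrays (open blue), with genes grouped by role (y axis). G2e3, Birc5, Kif23, Kif11, Nusap1, Hmmr and Tpx2 have all filled points left of both open ones, and uninduced array 2 (open squares) is the rightmost point in 21 genes.

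Kinesins held the largest change. Of 8 measured kinesin genes, 5 were lower and 3 higher in their means, and none passed the test. Kif23 encodes MKLP1, the motor of the centralspindlin complex that bundles midzone microtubules for cytokinesis. Its log2 level was 7.73, 7.71 and 7.58 on the induced arrays, against 8.12 and 7.97 on the uninduced arrays. The groups did not overlap, and each spanned 0.15. The change was -0.37, or 1.29-fold lower, with a 95% interval of -0.57 to -0.17. It did not pass over all genes (limma adjusted p = 0.770, and 1 with the tie-free spread).

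Other kinesins lay within or near the spread of their arrays. Kif4, the chromokinesin gene, had 6.38, 6.37 and 6.38 on the induced arrays, against 6.38 and 6.64 on the uninduced arrays. Its change of -0.13 thus rested on uninduced array 2, and was at 0 to 2 decimals without it. Kif11 encodes the motor that pushes spindle poles apart and had 8.10, 8.10 and 8.06 in the induced group, against 8.13 and 8.15 in the uninduced group. Its groups did not overlap, and its change was -0.05 (interval -0.19 to 0.09). Kif20b, a cytokinesis motor, was at -0.09, and Kif15, which can share the work of Kif11, at -0.07. Kif20a, which carries the passenger complex to the midzone, was at 0.01, Kif18a, which limits chromosome swaying, at 0.01, and Kif2c, a microtubule depolymerase, at 0.02. The 3 induced arrays shared a single value for Kif2c.

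Cyclin and CDK1 transcripts overlapped between the groups. Cdk1 had 8.10, 8.10 and 7.86 on the induced arrays, against 8.18 and 8.09 on the uninduced arrays. Only induced array 3 stood clearly below, and the change of -0.12 had an interval of -0.35 to 0.11. Ccnb2, the cyclin B2 gene, had 8.91, 8.89 and 8.91 in induced cells, against 8.91 and 8.93 in uninduced cells, a change of -0.01. Ccna2, whose cyclin acts in S phase and G2, was at -0.02 and at a level of 9.01.

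Of 6 mitotic kinase genes, 4 were lower and 2 higher in their means, and none passed the test. Bub1, a kinetochore kinase that marks centromeres for cohesin protection, had 8.82, 8.54 and 8.78 on the induced arrays, against 8.89 and 8.81 on the uninduced arrays. Its induced arrays differed among themselves by 0.28, more than its change of -0.13 (interval -0.38 to 0.11), and induced array 1 overlapped the uninduced group. Aurkb, the kinase of the passenger complex, had 8.28, 8.28 and 8.22 in the induced group, against 8.28 and 8.38 in the uninduced group, a change of -0.07. Aurka, which acts at spindle poles, was at 0.00, Bub1b, the BUBR1 gene, at 0.00, Plk1 at -0.03 and Ttk, the MPS1 kinase that starts the checkpoint, at -0.03.

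Checkpoint genes included the largest positive changes. Cdc20, the APC/C activator held by the checkpoint, had 7.69, 7.63 and 7.60 on the induced arrays, against 7.61 and 7.55 on the uninduced arrays. The groups overlapped, and the change of 0.06 had an interval of -0.09 to 0.22. Bub3 had 9.02, 9.02 and 9.06 in induced cells, against 8.96 and 9.02 in uninduced cells, a change of 0.04. Mad2l1, the MAD2 gene, had 9.42 on all induced arrays, against 9.39 and 9.49 on the uninduced arrays, so that the induced level lay between the uninduced ones. Its change was -0.03, and it was 0.02 without uninduced array 2 and -0.08 without uninduced array 1.

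Centromere and kinetochore genes showed the smallest differences of the larger role groups. Of 6, 5 had a lower mean and Nuf2 the same value throughout, with changes from -0.02 to 0. Cenpe, the kinetochore kinesin gene, had 7.29 on all 3 induced arrays, against 7.29 and 7.33 on the uninduced arrays, the largest difference of this group at -0.02. Cenpa, the gene of the histone variant that marks centromeres, was at -0.01 and Cenpf, a large kinetochore protein gene, at 0.00. Ndc80, Nuf2 and Spc25, subunits of the complex that grips microtubules, were each at 0.00. All 6 had ties, and their intervals reached from -0.161 at the lowest (Cenpe) to 0.135 at the highest (Nuf2).

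Of the 3 chromosomal passenger genes in this group, Birc5 was lower in its mean, Incenp higher and Cdca8 equal. Birc5 encodes survivin, which docks the complex on centromeres, and had 6.96, 6.95 and 6.96 on the induced arrays, against 7.09 and 7.08 on the uninduced arrays. The groups did not overlap, and each spanned 0.01. The change was -0.13, or 1.09-fold lower, with the smallest p of the 39 genes in limma's fit over all genes, and did not pass (limma adjusted p = 0.272). With the tie-free spread the interval was -0.26 to 0.01 (adjusted p = 1). Incenp, the scaffold, was at 0.02 and Cdca8, the borealin gene, had 7.19 on every array. Aurkb, the kinase of the complex, was at -0.07 with an interval of -0.23 to 0.09, which includes the change of Birc5, and no difference between Birc5 and its partners was tested.

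Spindle assembly and midzone genes all had lower means, and in 3 of the 4 the groups did not overlap. Nusap1, which bundles spindle microtubules, had 6.93, 6.93 and 6.94 on the induced arrays, against 6.98 and 7.16 on the uninduced arrays. Its change was -0.13 (interval -0.31 to 0.04) and ran to -0.05 without uninduced array 2. Hmmr, a hyaluronan receptor that also binds spindle microtubules, had 8.01, 7.87 and 7.97 in the induced group, against 8.06 and 8.05 in the uninduced group. Every induced array was lower, and the change was -0.10 (interval -0.27 to 0.06). Tpx2, which activates Aurora A on the spindle, had 8.60 on all induced arrays, against 8.60 and 8.66 on the uninduced arrays, and its separation from uninduced array 1 was visible only in the third decimal. Prc1, the crosslinker of the midzone, was at -0.01.

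Cytokinesis genes differed by -0.01 to -0.03. Racgap1, the partner of Kif23 in centralspindlin, had 7.80, 7.80 and 7.80 on the induced arrays, against 7.80 and 7.83 on the uninduced arrays. The changes of the centralspindlin genes were -0.37 for Kif23 and -0.02 for Racgap1, and the difference between them was not tested. Ect2, the exchange factor that switches on RhoA at the furrow, was at -0.03, and Anln, the anillin gene, at -0.01. Mki67, the proliferation marker that coats mitotic chromosomes, had 8.03, 8.01 and 8.02 in induced cells, against 8.03 and 8.16 in uninduced cells. Its change of -0.08 came from uninduced array 2, without which it was -0.01. Top2a, the topoisomerase that untangles sister chromatids, was at -0.04.

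G2e3 encodes a ubiquitin ligase named for its expression in G2 and M phase. Its level was 8.27, 8.29 and 8.30 on the induced arrays, against 8.51 and 8.55 on the uninduced arrays. The groups did not overlap, and each spanned 0.04. The change was -0.24, or 1.18-fold lower, with an interval of -0.38 to -0.10, and limma's adjusted p was 0.649. It ran from -0.26 to -0.22 over all 15 alternatives, several of which alter only the test or the genes tested and so cannot move it. Only Kif23 and G2e3 had an interval that left out 0. The intervals are not adjusted for the number of genes, and the share over all genes is not given here. Kif23 and G2e3 were among the 12 mitotic genes without ties within a group. In the fit restricted to the 3899 such genes neither passed (limma adjusted p = 0.515 for both).

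**Figure D4:**
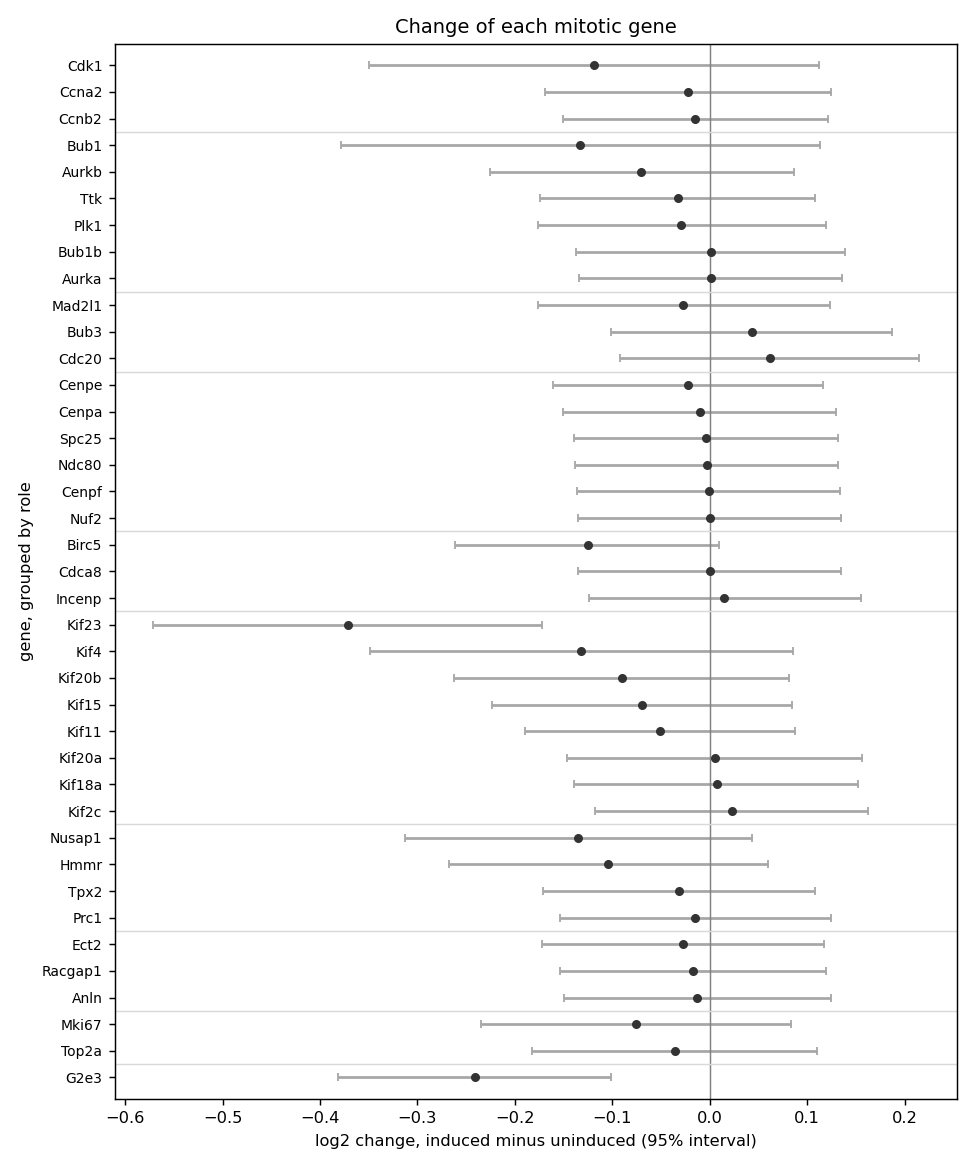
Log2 change, induced minus uninduced (x axis), of the 39 mitotic genes grouped by role (y axis), with 95% intervals from limma with the tie-free spread. The intervals of Kif23 (-0.57 to -0.17) and G2e3 (-0.38 to -0.10) lie below 0, and the other intervals include 0. They are not adjusted for the number of genes, and the share over all genes is not given here. Neither gene passed after adjustment.

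By role group, the mean level of the kinesins was 7.63, 7.63 and 7.59 on the induced arrays, against 7.67 and 7.74 on the uninduced arrays. The spindle assembly group had 7.80, 7.77 and 7.79 in the induced group, against 7.83 and 7.88 in the uninduced group. The kinetochore group had 7.29, 7.29 and 7.28 in induced cells, against 7.29 and 7.30 in uninduced cells, so that its arrays nearly coincided. The induced means were all below both uninduced means in 6 of the 10 role groups, namely the cyclins with CDK1, the kinases, the passenger genes, the kinesins, the spindle assembly genes and G2e3. For the kinesins this rested on Kif23, without which the means were 7.618, 7.621 and 7.591 on the induced arrays, against 7.605 and 7.703 on the uninduced arrays. For the passenger genes it rested on Birc5, since the other genes of that group did not separate the arrays. For the cyclins with CDK1 it rested on Cdk1, although all 3 genes of that group, Cdk1 included, overlapped. The kinase means nearly met, at 8.316 on induced array 1 against 8.319 on uninduced array 1. No background for gene groups of such sizes is given here. The checkpoint group alone had all induced means above both uninduced ones, by a narrow margin. They were 8.709, 8.69 and 8.692 on the induced arrays, against 8.655 and 8.687 on the uninduced arrays. The arrays of the 2 groups did not separate in any of its 3 genes, and Mad2l1 was highest on uninduced array 2, at 9.49. Bub1b, the gene of the checkpoint protein BUBR1, was counted with the kinases, and the separation depends on that choice.

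**Figure D5:**
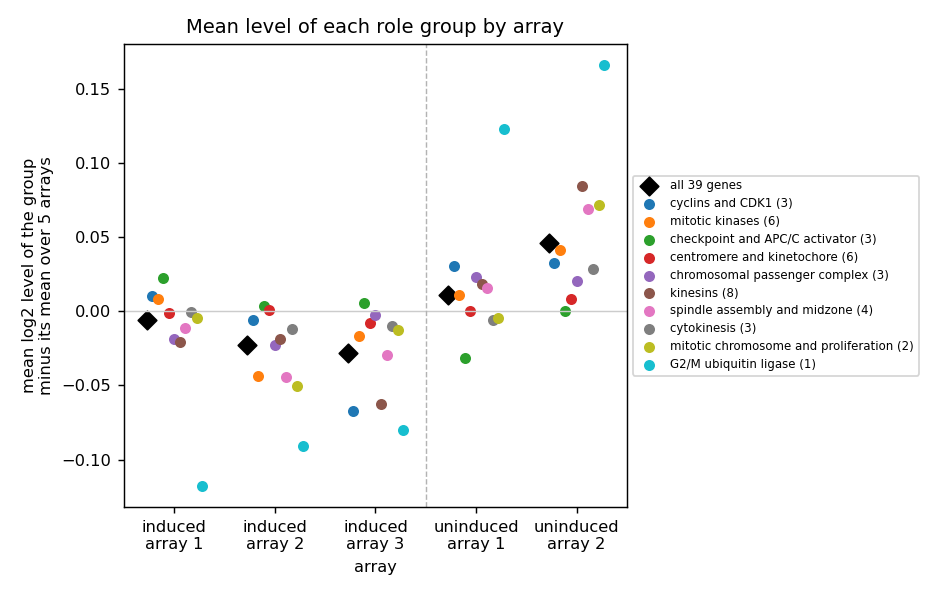
Mean log2 level of each role group on each array minus its mean over the 5 arrays (y axis), with induced arrays left of the dashed line and uninduced arrays right of it. Black diamonds give all 39 genes and coloured points the role groups, with the number of genes in brackets. The widest difference is that of G2e3, a group of 1 gene, and the kinetochore group stays near 0.

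Other genes of the same machinery were taken from lists that hold none of the 40. None of their 118 measured members passed in either direction. Of 29 further kinetochore genes, 20 were lower and 7 higher in their means, and the median was -0.02. The smallest p-values there were those of Pmf1 (-0.07), Spc24 (-0.20) and Mis18a (-0.12). Spc24, the partner of Spc25 in the NDC80 complex, had 7.26, 7.17 and 7.16 on the induced arrays, against 7.53 and 7.26 on the uninduced arrays, and the groups met at 7.26. Of 21 further spindle genes, 15 were lower and 3 higher, with a median of -0.01, and Haus4 (-0.14), Dlgap5 (-0.10) and Spag5 (-0.03) had the smallest p-values. The largest change of that list went up, at 0.16 for Kif24, named here after its value was seen, and its groups overlapped. Of 25 further kinases and regulators, 15 were lower and 8 higher, with a median of -0.02. Cks2, a small CDK1 subunit, had 6.91, 6.91 and 6.89 in induced cells, against 6.95 and 6.92 in uninduced cells, a change of -0.04 (limma adjusted p = 0.770). Mad2l1bp, an antagonist of MAD2, was at -0.24 and Lin54, the MuvB subunit that contacts the CHR, at -0.07. Of 18 APC/C genes, 11 were lower and 4 higher (median -0.0045; Anapc5 0.03, Cdc27 -0.09, Anapc16 -0.10). Of 25 condensin, cohesin and separase genes, 19 were lower and 3 higher (median -0.02; Ncaph2 -0.05, Smc3 -0.08, Rad21 -0.06). The groups did not overlap in 8 of the 118 genes (6.78%), each with the induced arrays lower, against 3.08% of all genes and 4.98% of those above the median level. These were Knl1, Mastl, Melk, Cks1b, Cks2, Anapc2, Ncaph2 and Smc3, listed after their values were seen. A CHR stood in 63.2% of the further spindle genes with a promoter in the table, in 38.5% of the kinetochore genes, in 42.1% of the condensin and cohesin genes, in 27.8% of the kinases and regulators and in 23.5% of the APC/C genes.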

How the data were processed

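Mouse ES cell RNA was measured on 5 arrays. The deposited values are on a log2 scale, read from their range of 0.79 to 13.1, and were made by the authors with RMA, per the submitters' processing notes, without a version. Software, probe grouping and build are not stated in the sources used here. RMA normalizes arrays to each other, so a shift of all transcripts would not be seen. Of 35557 probe sets, 21789 had 1 gene symbol, 1621 had several and 12147 were not named in the annotation. Of the first, 21698 matched the GRCm38.p6 gene table by identifier, and no symbol changed. The probe set with the highest mean stood for each of 19938 genes, without a filter on low values.

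The comparison used limma 3.58.1 in R 4.3.3 (lmFit, eBayes) on all 5 arrays without covariates. Adjusted p-values are Benjamini-Hochberg values over the 19938 genes, with 0.05 as the threshold, and the fit was tested on simulated data. limma's prior SD was 0.00495, and 0.0859 when only genes with 5 distinct values were used (the tie-free spread). Array values are given for genes whose groups did not overlap, with a change of 0.1 or more, or with the smallest p of their role group, and from each further list the 3 genes with the smallest p are named. Values on each array were also given for Mad2l1, Cdc20 and Spc24, chosen after they were seen. The genes and lists were chosen with earlier results of these data known. Same-numbered arrays were not shown to be paired.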

Additional observations from a re-analysis of the deposited data

How the results depend on the processing

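Over 15 alternatives the counts of mitotic genes that passed stayed at 0 except where an uninduced array was left out, in fits where the lone uninduced array is taken to vary as the induced arrays do. Leaving out each array in turn, 0 to 2 genes were higher and 0 to 11 lower, 24 to 32 had a lower mean, 8 to 24 had every induced array below and 0 to 5 every induced array above the uninduced ones, and the median change ran from -0.0485 to -0.0032. Over all genes those fits called 883 higher and 1097 lower without uninduced array 1, and 1051 higher and 928 lower without uninduced array 2. Birc5 and G2e3 were called lower without either uninduced array. Mad2l1 ran from -0.08 to 0.02 and Kif2c from -0.01 to 0.05. Each had a single value on all induced arrays. With a lone uninduced array these genes thus had no spread of their own, so calls for them there follow from ties. Quantile normalization applied again gave 6 genes with every induced array below, 5 with every induced array above and a median of -0.0017, and the cause was not tested. Only untied genes, 12 of the 39, gave 9 with a lower mean and a median of -0.0728. Over all 3899 untied genes the median was -0.018 and 57.5% were lower. The cause of the moved median was not tested. Satb1, at 3.55 in both, passed with the tie-free spread and among untied genes, and leaving out each array in turn gave 3.35 to 3.75. The replicate block used only arrays numbered 1 and 2, so induced array 3 was left out. It gave 0 calls, 27 lower means and a median of -0.0265. These changes are the same as without induced array 3, since a block on such a balanced set can alter only the test. The deviations of same-numbered arrays correlated at -0.0063 and 0.0063. The arrays' number and the ties limit what could be detected.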

Other observations

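Top2a had further probe sets that the comparison did not use. A second probe set with its symbol alone had log2 levels of 3.40, 3.76 and 3.87 on the induced arrays, against 4.06 and 3.65 on the uninduced arrays, far below the main one at 10.33, and the groups overlapped. Its change was -0.18, and the mean of both probe sets gave -0.11, against -0.04 for the main one. A pair of probe sets assigned to both Top2a and Hibadh had changes of -0.02 and -0.04.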
